A study of Mus musculus with 7 samples.

Results

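The genes described here are Fasl, its receptor gene Fas, and 7 genes of the cytotoxic granule, Gzma, Gzmb, Gzmk, Prf1, Nkg7, Cst7 and Ctsw. They were listed by name as killing machinery, and the list was chosen by what earlier results of these libraries showed, namely the log2 fold changes of Fasl and Nkg7 between the diets. All 9 were found among the 53465 Ensembl gene IDs of the count table, and all 9 passed the filter on low counts, which 14784 genes passed. Comparisons with the control diet are therefore a description for these 9 genes, with no test read from them.

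The libraries were made from cells sorted from mouse liver as CD4+ CD25+, a phenotype that regulatory T cells (Treg) carry, and they fall into 3 groups. WT_NCD denotes Wild type C57BL/6 mice given NCD, the normal control diet (2 libraries). WT_MCD denotes Wild type mice given MCD, the methionine/choline-deficient diet, a common model of fatty liver with inflammation (2 libraries). KO_MCD denotes CD73 KO mice given MCD (3 libraries), where CD73 is the cell surface enzyme, encoded by Nt5e, that makes adenosine from AMP. Feeding lasted 4 weeks in every group. The sources used here do not name the deleted part of Nt5e, the age of the mice or any pooling of animals. Knockout mice on NCD were not analysed here. Nothing in the labels makes the replicates separate animals, and a p-value then reflects the spread among these libraries alone, which may be technical.

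Cytotoxic lymphocytes kill by either of 2 routes. In the death receptor route, Fas ligand on the killer binds Fas on the target and starts the caspase cascade. In the granule route, perforin opens the target membrane to granzymes, serine proteases that are activated by cathepsins and stored on the proteoglycan serglycin. Natural killer (NK) cells and CD8 T cells are the classical users of granules, and Treg can also carry granzyme B and perforin and kill activated lymphocytes with them.

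Total counts ran from 19731501 to 24398738 per library. Levels are given as CPM, the count relative to the library size after TMM scaling between libraries. The targeted gene Nt5e had 243 and 241 CPM in the WT_NCD libraries, 177 and 87.5 CPM (WT_MCD) and 5.87, 14.5 and 6.43 CPM (KO_MCD), so each knockout library stood below all wild type libraries. T cell and Treg genes were present in all 7 libraries, with Cd3e at 93.4 to 303 CPM and Foxp3 at 107 to 286 CPM. RNA of other cells was present too. The summed level of 12 macrophage markers was 10663 and 1170 CPM (WT_NCD), 2340 and 31906 CPM (WT_MCD), and 7222 to 12461 CPM (KO_MCD), so WT_MCD replicate 2 stood apart from the rest.

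In CPM, the Fas ligand gene lay at a separate level in each of the 3 groups. Fasl (ENSMUSG00000000817, chromosome 1, 161780689 to 161788495, minus strand, on GRCm38 as for every gene here, overlapping no other annotated gene) had 15.7 and 10.9 CPM in the WT_NCD libraries. It had 61.8 and 61.2 CPM in the WT_MCD libraries and 69.0, 110 and 120 CPM in the KO_MCD libraries. On the CPM scale the groups did not overlap: every library of the deficient diet lay above every control library, and every knockout library lay above both wild type libraries on that diet. The group means were 13.3 ± 3.38 CPM (SD, n = 2), 61.5 ± 0.430 CPM (SD, n = 2) and 99.7 ± 27.1 CPM (SD, n = 3). The fitted log2 fold change of Fasl was 2.20 (SE 0.40) in WT_MCD against WT_NCD and 2.90 (SE 0.40) in KO_MCD against WT_NCD, and these comparisons share their control libraries. In bulk libraries a larger share of cells that carry a transcript and more of it per cell cannot be told apart.

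The sequence just before the Fasl start is shown beside those of 3 granzyme genes, because Fasl separated the groups, Gzmb did not, and the neighbours Gzma and Gzmk differed together between the wild type libraries on the deficient diet. Each window holds the 250 bases before the RefSeq start (GRCm38.p6), 5′ to 3′ on the gene's own strand, which is the minus strand for all 4, and overlaps no exon of the GENCODE annotation. The RefSeq start of Gzmk lies inside the longer GENCODE gene. Capitals mark matches, on either strand, to a RUNX motif (TGTGGT), a T-box motif (GGTGTGA), an NFAT motif (TGGAAA) or an AP-1 motif (TGANTCA). No motif overlapped another in these windows.
Fasl, chr1:161788496-161788745: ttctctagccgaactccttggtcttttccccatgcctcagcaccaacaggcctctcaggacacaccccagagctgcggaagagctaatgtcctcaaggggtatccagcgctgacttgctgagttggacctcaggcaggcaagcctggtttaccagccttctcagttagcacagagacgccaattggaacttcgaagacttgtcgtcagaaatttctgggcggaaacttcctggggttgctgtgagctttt
Gzmb, chr14:56262335-56262584: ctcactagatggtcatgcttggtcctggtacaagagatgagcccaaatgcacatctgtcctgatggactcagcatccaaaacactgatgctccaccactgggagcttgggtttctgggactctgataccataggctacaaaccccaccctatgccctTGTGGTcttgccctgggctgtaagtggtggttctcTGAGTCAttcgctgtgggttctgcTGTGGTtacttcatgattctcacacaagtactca
Gzma, chr13:113100982-113101231: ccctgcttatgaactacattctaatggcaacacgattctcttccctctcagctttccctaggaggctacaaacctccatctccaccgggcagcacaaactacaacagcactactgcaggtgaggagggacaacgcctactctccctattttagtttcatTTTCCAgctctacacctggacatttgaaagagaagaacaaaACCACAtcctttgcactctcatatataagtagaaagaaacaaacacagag
Gzmk, chr13:113180966-113181215: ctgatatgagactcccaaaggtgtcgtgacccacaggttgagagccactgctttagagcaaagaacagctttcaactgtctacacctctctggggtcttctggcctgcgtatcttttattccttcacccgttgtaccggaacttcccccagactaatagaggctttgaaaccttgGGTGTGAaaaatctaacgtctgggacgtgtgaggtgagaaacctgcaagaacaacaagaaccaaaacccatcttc

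Of 32851 RefSeq windows of this length, 14.0% held the RUNX letters, 3.33% the T-box letters, 18.6% the NFAT letters and 6.75% the AP-1 letters. The Gzmb window held 2 RUNX matches, which began 93 and 34 bases before the start, and 1 AP-1 match 58 bases before it. The Gzma window held 1 RUNX match at 50 bases and 1 NFAT match at 91 bases, and the Gzmk window held 1 T-box match at 75 bases. None of the 4 motifs was found in the Fasl window, which says only that these letters are not in those 250 bases. RefSeq promoter windows were matched for 8 of the 9 members, all but Ctsw. In the windows not printed, Prf1, Nkg7 and Cst7 each held 1 RUNX match. Nkg7 also held 1 T-box match, Cst7 1 NFAT match and Fas 1 AP-1 match. RUNX matches thus lay both in members that separated the diets (Prf1 and Nkg7) and in members that did not (Gzmb and Cst7). A link between motifs and levels was not tested.

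Fas, the death receptor that Fas ligand binds, was present in every library and did not follow the order seen for its ligand. Fas (ENSMUSG00000024778, chromosome 19, 34290666 to 34327772, plus strand) had 49.3 and 54.8 CPM (WT_NCD), 38.5 and 45.4 CPM (WT_MCD), and 30.1, 24.5 and 51.1 CPM (KO_MCD). The WT_MCD libraries lay below both WT_NCD libraries, while KO_MCD replicate 3 lay inside the WT_NCD range. The log2 fold change of Fas was -0.31 (SE 0.44) in WT_MCD against WT_NCD and -0.56 (SE 0.40) in KO_MCD against WT_NCD, and both signs turned when libraries were scaled on pan T cell counts (0.39 and 0.13). An annotated small gene, Gm27818, lies within Fas on its strand.

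**Figure D1:**
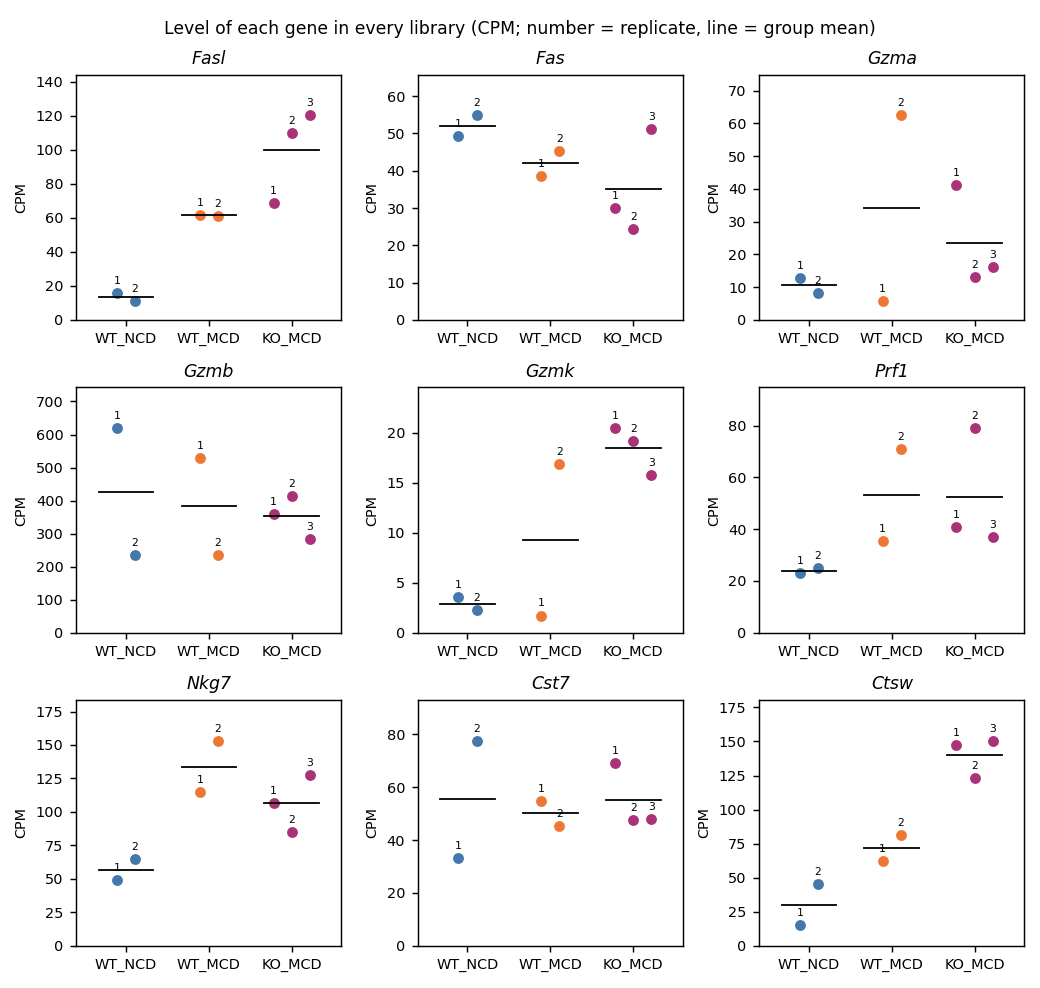
CPM (linear axis from 0) of each of the 9 genes in the 7 libraries, by group; points are libraries with their replicate number, and lines are group means. Fasl lies at 10.9 and 15.7 CPM (WT_NCD) and at 69.0 to 120 CPM (KO_MCD), Ctsw at 14.8 and 45.0 and at 123 to 150 CPM, and the groups overlap for Gzmb and Cst7.

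Granzyme B, the aspartate-cutting protease that activates caspases and Bid in the target, was the most abundant granzyme and did not separate the groups. Gzmb (ENSMUSG00000015437, chromosome 14, 56258838 to 56262260) had 619 and 236 CPM (WT_NCD), 530 and 236 CPM (WT_MCD), and 359, 414 and 284 CPM (KO_MCD). The libraries of the knockout lay inside the range of the wild type libraries, and within each wild type group replicate 1 was well above replicate 2. The log2 fold change of Gzmb was -0.16 (SE 0.54) in WT_MCD against WT_NCD and -0.12 (SE 0.49) in KO_MCD against WT_MCD, with a 95% interval from -1.27 to 1.03 in the latter. Scaling on pan T cell counts turned both signs (0.18 and 0.12).

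Granzymes A and K are tryptases whose genes lie next to each other on chromosome 13, with 70626 bases and no coding gene between them. Gzma (ENSMUSG00000023132, 113093825 to 113100981) had 12.8 and 8.24 CPM (WT_NCD), 5.67 and 62.4 CPM (WT_MCD), and 41.2, 13.0 and 15.99 CPM (KO_MCD). Gzmk (ENSMUSG00000042385, 113171608 to 113225908) had 3.54 and 2.27 CPM (WT_NCD), 1.72 and 16.8 CPM (WT_MCD), and 20.4, 19.1 and 15.8 CPM (KO_MCD). For both genes WT_MCD replicate 1 was the lowest of all 7 libraries and WT_MCD replicate 2 was among the higher. In the knockout the pair differed: Gzmk lay within a narrow range in all 3 libraries, whereas Gzma was high in replicate 1 alone. The Gzmk libraries of KO_MCD lay above both WT_NCD libraries (log2 fold change 2.66, SE 1.0). For Gzma the same held by a small margin, 13.0 against 12.8 CPM (1.15, SE 0.99). In WT_MCD against WT_NCD the log2 fold changes of Gzma and Gzmk were 1.69 (SE 1.07) and 1.67 (SE 1.02), and without WT_MCD replicate 2 they were -0.89 and -0.75. Gzmk overlaps Esm1 on the other strand, which had 0 to 7.76 CPM, so some of its reads may belong to Esm1 where the counting did not use strand.

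The composition of the granzyme pool within each library does not depend on scaling between libraries. Gzmb made up 96.3% of the counts of 10 granzyme genes in WT_NCD replicate 1 (exact 95% interval 95.9 to 96.6, covering counting error only) and 92.8% in replicate 2. Its share was 96.6% in WT_MCD replicate 1 and 73.0% in WT_MCD replicate 2 (71.9 to 74.1), and 83.4%, 91.1% and 87.7% in the KO_MCD libraries. Gzma made up 19.3% of the pool in WT_MCD replicate 2 and 1.03% in WT_MCD replicate 1. The Gzmk share was 0.550% and 0.895% in WT_NCD, 0.313% and 5.22% in WT_MCD, and 4.75%, 4.21% and 4.87% in KO_MCD, so each knockout library lay above both control diet libraries. Gzmd, Gzme, Gzmg and Gzmn, which belong to the granzyme B cluster, had a count of 0 in all libraries, which allows up to 0.129 to 0.157 CPM in a library (3 counts, covering counting error only). Gzmc, of the same cluster, had 5.0 to 9.95 CPM.

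**Figure D2:**
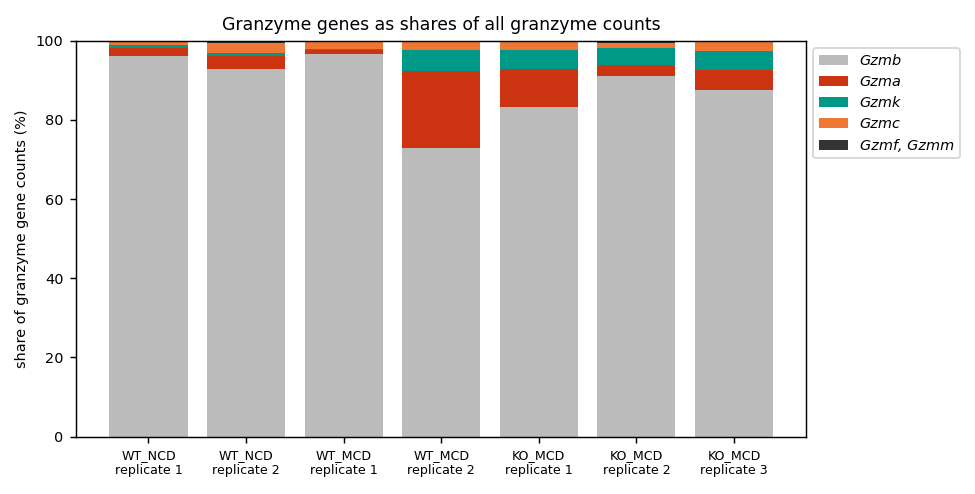
Share of all granzyme counts (%, axis from 0 to 100) taken by each granzyme gene in the 7 libraries; stacked bars are single libraries. Gzmb takes 73.0 to 96.6% in every library, and the Gzmk band is 0.313 to 0.895% in WT_NCD and WT_MCD replicate 1 but 4.21 to 5.22% in the other 4 libraries.

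Perforin and the granule membrane protein Nkg7 stood higher in WT_MCD and in KO_MCD than in WT_NCD. Prf1 (ENSMUSG00000037202, chromosome 10, 61297833 to 61304680), which encodes the pore former, had 23.0 and 24.8 CPM (WT_NCD), 35.4 and 71.1 CPM (WT_MCD), and 40.9, 79.0 and 37.2 CPM (KO_MCD). Nkg7 (ENSMUSG00000004612, chromosome 7, 43437073 to 43438249), needed for release of the granule content, had 48.7 and 64.6 CPM (WT_NCD), 115 and 153 CPM (WT_MCD), and 107, 84.9 and 128 CPM (KO_MCD). For both genes all 5 libraries of the deficient diet lay above the control libraries, and the WT_MCD and KO_MCD libraries overlapped. The log2 fold change in WT_MCD against WT_NCD was 1.15 (SE 0.53) for Prf1 and 1.24 (SE 0.35) for Nkg7. Without WT_MCD replicate 2 that of Prf1 was 0.57.

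The cathepsin and the cathepsin inhibitor of the list differed in pattern. Ctsw (ENSMUSG00000024910, chromosome 19, 5465043 to 5468507), which encodes cathepsin W of NK and CD8 T cells, had 14.8 and 45.0 CPM (WT_NCD), 62.1 and 81.0 CPM (WT_MCD), and 147, 123 and 150 CPM (KO_MCD). Like Fasl it lay at 3 levels without overlap, with a mean of 140 ± 14.7 CPM (SD, n = 3) for KO_MCD and of 71.5 ± 13.4 CPM (SD, n = 2) for WT_MCD. The log2 fold change of Ctsw in KO_MCD against WT_NCD was 2.23 (SE 0.50), but 1.64 without WT_NCD replicate 1 and 3.25 without WT_NCD replicate 2. In WT_MCD against WT_NCD it was 1.26 (SE 0.51), but 0.67 without WT_NCD replicate 1 and 2.28 without WT_NCD replicate 2. Ctsw overlaps Fibp on the other strand, and reads of the overlap cannot be told apart if strand was not used. Fibp had 13.3 to 38.5 CPM, and KO_MCD held both its highest and its lowest library. Cst7 (ENSMUSG00000068129, chromosome 2, 150570415 to 150578944), which encodes cystatin F, an inhibitor of the cathepsin that activates granzymes, had 33.3 and 77.5 CPM (WT_NCD), 54.9 and 45.3 CPM (WT_MCD), and 69.2, 47.7 and 48.0 CPM (KO_MCD). Every library of the deficient diet lay between the 2 control libraries of Cst7.

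Per kilobase of exon, which allows levels of different genes to be compared, Gzmb led in 6 of 7 libraries and Nkg7 in WT_MCD replicate 2 (167 against 164 CPM per kb). In WT_NCD the mean level of Fasl was 6.88 ± 1.74 CPM per kb (SD, n = 2), below Fas at 25.3 ± 1.91 CPM per kb (SD, n = 2). In WT_MCD the order was turned, with Fasl at 31.7 ± 0.22 and Fas at 20.4 ± 2.34 CPM per kb (SD, n = 2). In KO_MCD Fasl had 51.5 ± 14.0 and Fas 17.1 ± 6.81 CPM per kb (SD, n = 3). Gzmk had the lowest level of the 9 in both control libraries, at 2.55 and 1.64 CPM per kb.

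Between the diets in wild type mice, the libraries of 4 of the 9 genes lay higher without overlap (Fasl, Prf1, Nkg7 and Ctsw) and those of 1 lower (Fas). Over all tested genes such separation was seen in 16.8% upward and 14.8% downward. The median log2 fold change of the 9 was 1.24, beside 0.04 over all genes tested. No gene passed a Benjamini-Hochberg adjusted p of 0.05 over all genes by edgeR's quasi-likelihood test (0%), and 887 had an unadjusted p under 0.05 (6%), 3 of them members. DESeq2 called 315 genes (2.19%), with 1 member, Fasl, and limma voom called 0. As the list was made with this comparison in view, nothing is read from these counts.

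KO_MCD against WT_MCD asks what the lack of CD73 changes on the deficient diet. The list was chosen partly on WT_MCD values, which are the reference here, so this comparison is not independent of that choice. Even the targeted gene Nt5e was not called by edgeR (log2 fold change -3.88, SE 0.51), whereas DESeq2 called it (DESeq2 adjusted p = 4.8e-09). The lack of a call by edgeR therefore does not show the lack of a difference. Of the 9 genes, Fasl and Ctsw stood higher without overlap and 7 overlapped, beside 8.37% of all tested genes higher and 9.66% lower without overlap. The difference of Fasl was 0.70 on the log2 scale (SE 0.36, edgeR adjusted p = 1, 95% interval -0.14 to 1.54). That of Ctsw was 0.97 (SE 0.47, edgeR adjusted p = 1, 95% interval -0.14 to 2.08). Both intervals include 0, and the unadjusted edgeR p was 0.091 for Fasl and 0.077 for Ctsw. The adjusted p is taken over all 14784 genes and does not measure the spread between libraries. Relative to 1000 counts of 14 pan T cell genes, Fasl had 5.2 and 10.02 counts in WT_MCD and 9.87, 13.5 and 14.2 in KO_MCD, so on this scale the groups overlapped, while Ctsw had 5.22 and 13.3 against 21.1, 15.2 and 17.8 and did not. None of the 9 members passed by edgeR (0% of all genes), by DESeq2 (0.34% of all genes) or by limma voom. By edgeR 0 had an unadjusted p under 0.05, where 3.25% of all genes did. DESeq2 and limma voom each gave 1, Ctsw (unadjusted p = 0.0487 and 0.0336), beside 682 of 14685 and 600 of 14784 genes. Apart from fits that left out 1 library, Ctsw was also under 0.05 by edgeR without the low-count filter or with the 2 groups alone. It was not with other scalings or a replicate block. Without KO_MCD replicate 1 Fasl had an unadjusted edgeR p of 0.0478, and without KO_MCD replicate 2 or 3 no member was under 0.05. For Prf1 and Nkg7 the log2 fold changes were -0.02 (95% interval -1.14 to 1.09) and -0.33 (-1.05 to 0.39), and both intervals reach changes in either direction. The log2 fold changes of all 9 ran from -0.54 (Gzma) to 0.99 (Gzmk), and both moved with the WT_MCD libraries. Without WT_MCD replicate 2 Gzma and Gzmk were at 2.04 and 3.42, and without WT_MCD replicate 1 at -1.38 and 0.17. The median of the 9 was -0.02, beside -0.03 over all genes.

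**Figure D3:**
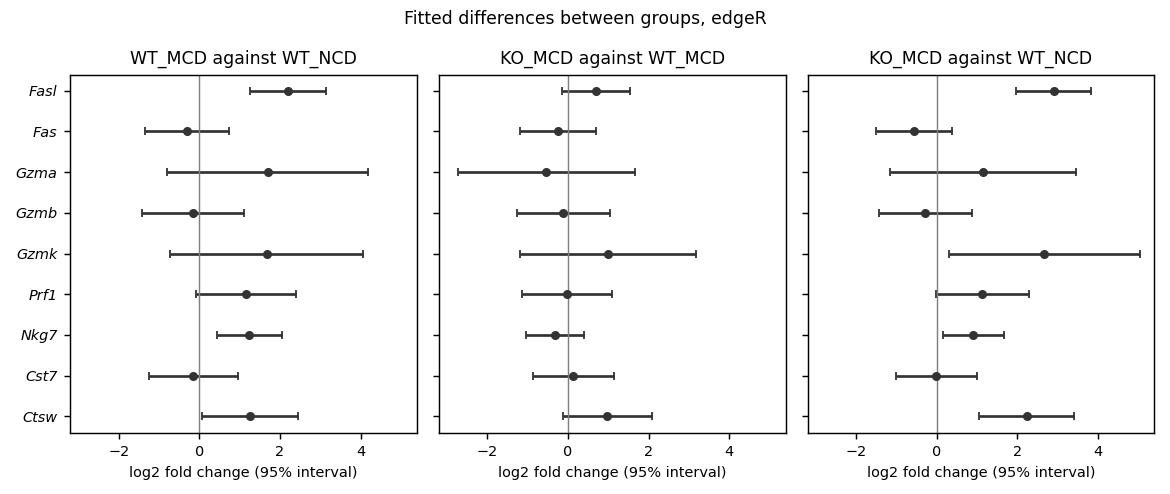
Fitted log2 fold changes (edgeR) of the 9 genes in the 3 comparisons, with 95% intervals; the vertical line is no difference. Fasl lies at 2.20, 0.70 and 2.90 from left to right and Ctsw at 1.26, 0.97 and 2.23, and all 9 intervals of KO_MCD against WT_MCD cross 0.

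KO_MCD against WT_NCD differs in diet and genotype together, and shares its control libraries with the diet comparison. The libraries of 6 members stood higher without overlap (Fasl, Gzma, Gzmk, Prf1, Nkg7 and Ctsw), beside 13.4% of all tested genes, and 0 stood lower, beside 12.8%. By edgeR 0 members were called (0% of all genes), 4 had an unadjusted p under 0.05 (8.97% of all genes), and DESeq2 called 2 members, Fasl and Ctsw (4.07% of all genes). The same 2 were called by edgeR without the low-count filter. These counts too are a description.

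NK cell markers, too, stood higher in sum in WT_MCD and KO_MCD than in WT_NCD. The summed level of the 11 markers was 65.9 and 10.8 CPM (WT_NCD), 234 and 473 CPM (WT_MCD), and 206, 232 and 285 CPM (KO_MCD). Their defining receptor gene Ncr1 was not counted in either WT_NCD library, and had 16.4 and 37.7 CPM (WT_MCD) and 4.42, 5.75 and 6.71 CPM (KO_MCD). Klre1 was likewise at 0 in both WT_NCD libraries, whereas Klrk1 had 24.4 and 5.71 CPM and Klrb1c 12.8 and 3.78 CPM there, near the level of Fasl in replicate 1. The NK sums of WT_MCD and KO_MCD overlapped. All 11 markers had a negative log2 fold change in KO_MCD against WT_MCD (median -0.42, beside -0.03 over all genes). Of these 2 were lower without overlap, beside 9.66% of all tested genes. Of the 11 markers, 4 and 8 were at 0 in the WT_NCD libraries, 2 and 0 in WT_MCD, and 0, 2 and 1 in KO_MCD. The part of NK cells in the higher levels of the members was not tested.

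The CD8 genes Cd8a and Cd8b1 together had 22.9 and 31.3 CPM (WT_NCD), 17.1 and 98.9 CPM (WT_MCD), and 75.2, 81.1 and 78.1 CPM (KO_MCD). WT_MCD replicate 1, the library with the least Gzma and Gzmk, had no count of Cd8a, and its CD8 sum was the lowest of the 7. The 2 gamma delta T cell genes matched, Trdc and Trdv4, summed to 0.253 to 9.10 CPM. Markers of plasmacytoid dendritic cells, which can express granzyme B, summed to 332 and 254 CPM (WT_NCD), 670 and 1095 CPM (WT_MCD), and 1150, 713 and 1775 CPM (KO_MCD). All libraries of the deficient diet lay above the control libraries in this sum, an order that Gzmb did not show. The same order held for 7 B and plasma cell markers, at 284 and 120 CPM (WT_NCD), 308 and 431 CPM (WT_MCD), and 832, 714 and 332 CPM (KO_MCD). Of 8 mast cell and basophil markers, 4 to 7 were at 0 in each library. The 14 pan T cell genes summed to 10585 and 15695 CPM (WT_NCD), 11877 and 6102 CPM (WT_MCD), and 6989, 8117 and 8439 CPM (KO_MCD), and 10 Treg markers to 2470 to 4411 CPM. The part of these cells in the members' levels was not tested.

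**Figure D4:**
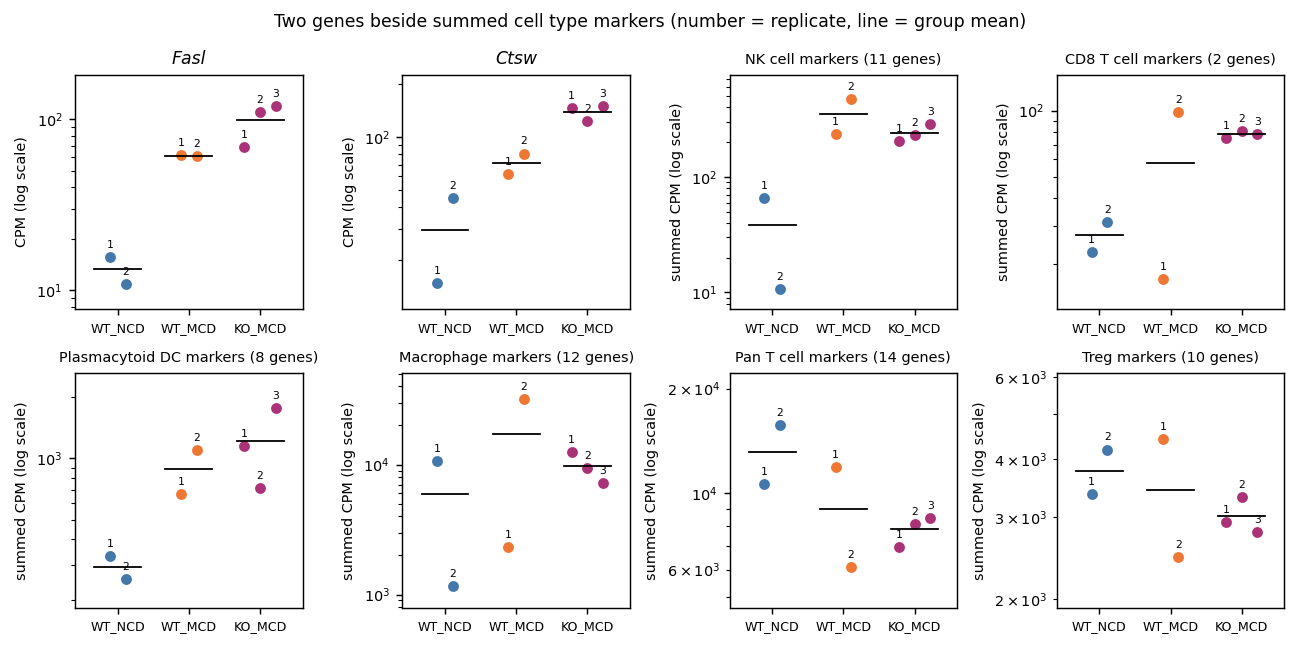
CPM of Fasl and Ctsw and summed CPM of marker lists in the 7 libraries (log axes); points are libraries with their replicate number, and lines are group means. Fasl and Ctsw are highest in KO_MCD, the NK sum is highest in WT_MCD replicate 2 (473 CPM), the CD8 sum is lowest in WT_MCD replicate 1 (17.1 CPM), and the macrophage sum spans 1170 to 31906 CPM.

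The other genes of the granule route were taken from a list of 22 genes, of which 17 were tested. The list holds the other granzymes, their activating cathepsins, serglycin, genes of granule release and granzyme inhibitors. By edgeR 0 of 17 passed in each comparison, against 2, 2 and 1 with an unadjusted p under 0.05 in WT_MCD against WT_NCD, KO_MCD against WT_MCD and KO_MCD against WT_NCD, and DESeq2 called 1, 0 and 0. Over all tested genes the unadjusted shares were 6%, 3.25% and 8.97%, and the DESeq2 shares 2.19%, 0.34% and 4.07%. The median log2 fold change of the list between the diets was 0.21, beside 0.04 over all genes. In KO_MCD against WT_MCD it was -0.17, beside -0.03, with 3 genes positive and 14 negative. Between the diets 5 of the 17 stood higher and 4 lower without overlap, beside 16.8% and 14.8% of all tested genes. In KO_MCD against WT_MCD 1 stood higher and 2 lower, beside 8.37% and 9.66%. Serpinb9, the inhibitor of granzyme B that protects the killer itself, had 65.4 and 76.0 CPM (WT_NCD), 206 and 144 CPM (WT_MCD), and 107, 86.9 and 124 CPM (KO_MCD). It stood higher in WT_MCD than in either other group without overlap (log2 fold change 1.31, SE 0.33, edgeR adjusted p = 0.690 against WT_NCD, where DESeq2 called it; -0.72, SE 0.29, edgeR adjusted p = 1 in KO_MCD against WT_MCD). Rab27a, the small GTPase that docks granules at the membrane, had 310 and 305 CPM (WT_NCD), 360 and 213 CPM (WT_MCD), and 120, 179 and 178 CPM (KO_MCD) (log2 fold change -0.85, SE 0.32, edgeR adjusted p = 1 in KO_MCD against WT_MCD). Lamp1, a membrane protein of lysosomes and granules, had 248 and 146 CPM (WT_NCD), 261 and 1344 CPM (WT_MCD), and 466, 391 and 385 CPM (KO_MCD). Its peak was in WT_MCD replicate 2, where the macrophage, NK and CD8 sums were also highest. The part of these cells in the Lamp1 level was not tested. Gnptab, an enzyme of the lysosomal sorting tag, had 8.49 and 9.40 CPM (WT_NCD), 14.2 and 34.1 CPM (WT_MCD), and 9.32, 35.6 and 23.7 CPM (KO_MCD). Serpinb9b was counted in 3 libraries, WT_MCD replicate 2 (6.92 CPM) and KO_MCD replicates 1 and 3 (1.84 and 3.38 CPM).

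The other genes of the death receptor route were a list of 27, of which 26 were tested. By edgeR 0 of 26 passed in each comparison, against 3, 0 and 2 with an unadjusted p under 0.05 in the same order (6%, 3.25% and 8.97% of all genes), and DESeq2 called none (2.19%, 0.34% and 4.07% of all genes). The median log2 fold change was -0.12 in the diet comparison, beside 0.04 over all genes. Tnfrsf1b, the second TNF receptor, had 281 and 312 CPM (WT_NCD), 485 and 624 CPM (WT_MCD), and 533, 528 and 428 CPM (KO_MCD) (log2 fold change 0.90, SE 0.28, edgeR adjusted p = 0.746 in the diet comparison). Casp9, the initiator of the mitochondrial branch, had 5.10 and 18.1 CPM (WT_NCD), 35.0 and 65.0 CPM (WT_MCD), and 23.1, 37.9 and 19.5 CPM (KO_MCD). Bax, which permeabilises mitochondria, had 67.5 and 41.8 CPM (WT_NCD), 99.9 and 118 CPM (WT_MCD), and 83.0, 69.7 and 66.7 CPM (KO_MCD). These 3 genes, which had the smallest p-values of the list, stood higher in WT_MCD than in WT_NCD without overlap. Of the 26 tested genes 4 stood higher and 4 lower in this way, beside 16.8% and 14.8% of all tested genes.

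Of the 26 tested genes 5 stood lower and 4 higher without overlap in KO_MCD than in WT_NCD, beside 12.8% and 13.4% of all tested genes. Among the lower was Casp8, the initiator caspase recruited by Fas. It had 298 and 590 CPM (WT_NCD), 298 and 215 CPM (WT_MCD), and 272, 278 and 161 CPM (KO_MCD) (log2 fold change -0.91, SE 0.39, edgeR adjusted p = 0.557 in KO_MCD against WT_NCD). In KO_MCD against WT_MCD the smallest p-values of the list were those of Casp6, Tradd and Bax, with log2 fold changes of -0.78 (SE 0.34), -0.59 (SE 0.31) and -0.57 (SE 0.31) and an edgeR adjusted p of 1 each.

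Of 15 transcriptional regulators of the cytotoxic programme and of Fasl, all were tested and 0 passed by edgeR in any comparison, against 1, 0 and 1 with an unadjusted p under 0.05 (6%, 3.25% and 8.97% of all genes), and DESeq2 called none (2.19%, 0.34% and 4.07% of all genes). Of the 15, 12 had a positive log2 fold change between the diets, and the median was 0.72, beside 0.04 over all genes. Nfatc1 and Nfatc2 encode NFAT factors, which act on Fasl downstream of the T cell receptor. Nfatc1 had 163 and 170 CPM (WT_NCD), 324 and 260 CPM (WT_MCD), and 293, 185 and 288 CPM (KO_MCD) (log2 fold change 0.81, SE 0.32, edgeR adjusted p = 0.808 in the diet comparison). Nfatc2 had 14.9 and 27.5 CPM (WT_NCD), 71.2 and 32.0 CPM (WT_MCD), and 17.3, 30.9 and 45.0 CPM (KO_MCD). Bhlhe40, a transcriptional repressor induced in activated T cells, had 456 and 76.8 CPM (WT_NCD), 1220 and 416 CPM (WT_MCD), and 982, 1094 and 882 CPM (KO_MCD) (1.89, SE 0.77, edgeR adjusted p = 0.544 in KO_MCD against WT_NCD). Nfkb1 stood higher in the same comparison (0.59, SE 0.27, edgeR adjusted p = 0.573). Eomes, a T-box factor of NK and CD8 T cells, was not counted in WT_NCD or WT_MCD replicate 1 and had 0.143 to 3.58 CPM in the other 4 libraries. In KO_MCD against WT_MCD the smallest p-values were those of Nfatc2, Runx3 and Egr3, with log2 fold changes of -0.73 (SE 0.56), -0.58 (SE 0.45) and 1.04 (SE 0.95) and an edgeR adjusted p of 1 each.

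Candidates were 9698 other tested genes whose mean reached 5 CPM. Those whose log2 CPM followed Fasl most closely over the 7 libraries were Pigz (Pearson r = 0.98), Ly6d (0.97), Appl2 (0.97), Pcyt1a (0.97), Bcl11a (0.97), Smyd5 (0.97), Rnf166 (0.97) and Ctdp1 (0.96). Those closest to Nkg7 were Il3ra (0.99), Acsl1 (0.99), Hgsnat (0.98), Map2k2 (0.98), Brd3 (0.98), Mmp9 (0.97), Rftn1 (0.97) and Slc6a6 (0.97). The lists shared no gene. With 7 libraries in 3 groups these values mainly rank genes by how they follow the group means, and they are given without a p.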

How the data were processed

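The deposited table holds raw gene counts from the authors, with columns named by sample title for all 7 libraries. Alignment used HISAT2 2.1.0 and GRCm38 (per the submitters' processing notes). For the counting tool, its annotation and its strand setting nothing is stated in the sources used here. Gene names, positions and exon lengths came from GENCODE M21 (GRCm38), which held 53360 of 53465 IDs, and promoter windows from RefSeq (GRCm38.p6).

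The main test was the quasi-likelihood F test of edgeR 4.0.16 (R 4.3.3) over all 7 libraries, with TMM scaling, filterByExpr at a minimum count of 10 and a term for each group. A gene was called at a Benjamini-Hochberg adjusted p of 0.05 over all 14784 genes. The SE is the log2 fold change divided by the root of the F statistic. Dispersion was high, at 0.833 (a CV of 91.3%). Libraries of the same group always differed beyond counting noise.

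The members and the gene lists were chosen with earlier results of these data known. The named genes were the 9 members, Nt5e, the 3 genes with the smallest p per list and comparison, and the 8 genes most correlated with Fasl and with Nkg7 (mean of at least 5 CPM, log2 CPM with a prior count of 2). Marker genes, other granzymes and genes overlapping a member were named beside them. Trgc1, Trgc2 and Trgc4 were not matched. A gene that the rule names is not reported here. Alternatives were median-ratio scaling, library sizes from pan T cell counts, no low-count filter, DESeq2 1.42.0, limma 3.58.1 (voom), the replicate number as a block, only the groups compared, and each library left out. A crossed block, and counts of members without overlap under other scalings and without each library, were chosen after seeing the data.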

Additional observations from a re-analysis of the deposited data

How the results depend on the processing

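Of 378 log2 fold changes of the members under alternatives, 340 kept their direction and side of the threshold, 33 changed sign and 5 passed the threshold. The genes called by edgeR without the low-count filter were 54, 1 and 140 and by DESeq2 315, 50 and 562 (WT_MCD against WT_NCD, KO_MCD against WT_MCD, KO_MCD against WT_NCD), against 0. Members called in KO_MCD against WT_NCD were 2 without the filter (Fasl 2.90, Ctsw 2.23) and 2 by DESeq2 (Fasl 2.91, Ctsw 2.26), and 1 by DESeq2 between the diets (Fasl 2.20). The cause was not tested.

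Scaling on pan T cell counts moved the median of all genes to 0.71, 0.02 and 0.76. Under it Cst7 was 0.57, Fas 0.39 and Gzmb 0.18 between the diets, Gzmb 0.12 in KO_MCD against WT_MCD, and Cst7 0.82, Fas 0.13 and Gzmb 0.30 in KO_MCD against WT_NCD. Members without overlap were then 0 lower between the diets and 1 higher in KO_MCD against WT_MCD, and shares over all genes were not computed under this scaling. Cst7 in KO_MCD against WT_NCD was 0.0176 with median-ratio scaling, 0.0175 by DESeq2 and 0.0622 by limma voom. In KO_MCD against WT_MCD voom gave Gzma 0.18 and Prf1 2.17e-05.

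Deviations from the group mean were little correlated between libraries with the same replicate number (-0.10 to 0.03). In a group of 2 libraries the deviations mirror each other, so this check cannot exclude pairing. With the replicate number as a block 0 genes and 0 members were called in each comparison (514, 342 and 885 genes at an unadjusted p under 0.05), Gzmb was 0.20 and Prf1 0.18 in KO_MCD against WT_MCD, and Cst7 0.11 and Gzmb 0.0670 in KO_MCD against WT_NCD. A crossed block of the wild type groups, chosen after seeing the data, called 0 genes and 0 members.

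Leaving out each library gave 0 calls. Between the diets the ranges were -0.63 to 0.59 for Cst7, -0.89 to 2.55 for Gzma, -0.88 to 0.70 for Gzmb and -0.75 to 2.51 for Gzmk. In KO_MCD against WT_MCD they were -0.0620 to 0.32 for Cst7, -1.38 to 2.04 for Gzma, -0.59 to 0.62 for Gzmb and -0.45 to 0.56 for Prf1, and in KO_MCD against WT_NCD -0.50 to 0.73 for Cst7 and -0.81 to 0.58 for Gzmb. Members without overlap ranged from 2 to 5 higher and 0 to 2 lower in KO_MCD against WT_MCD, 0 to 2 lower in KO_MCD against WT_NCD and 1 to 3 lower between the diets. A group left with 1 library separates more easily, and shares over all genes were not computed for these reduced sets, so nothing is read from these counts. Over the comparisons in the order above, Fasl ranged from 1.97 to 2.49, 0.54 to 0.91 and 2.67 to 3.18 and Ctsw from 0.67 to 2.28, 0.83 to 1.18 and 1.64 to 3.25. Gzmk ranged from 0.17 to 3.42 in KO_MCD against WT_MCD.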
